A study of Mus musculus with 109 samples.

Results

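The interferon-gamma induced GTPases measured here were 3 guanylate-binding proteins (Gbp3, Gbp7 and Gbp9), 3 immunity-related GTPases (Irgm1, Irgm2 and Igtp) and Irf1, the transcription factor that drives many of them. They were taken by Ensembl identifier from a list of 9 genes that also holds Gbp5 and Gbp6, whose expression was not analysed here, so that 7 of 9 listed genes were described among 37315 genes. RNA-seq of whole mouse retinas was used to ask how the cytokines IL1A and TNF, injected into the vitreous alone or together, changed gene expression around retinal ganglion cells (RGCs). Each library held the RNA of 1 retina, and the 64 mice, aged 2 to 4 months, gave 54 retinas from females and 55 from males.

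In the batch labelled 1, wild-type (WT; C57BL/6J by the study's methods) retinas were collected 2 days after PBS (n = 31), TNF (n = 8), IL1A (n = 9) or IL1A+TNF (n = 10), 14 days after PBS (n = 7, from 6 mice) or TNF (n = 6), and 35 days after PBS (n = 6) or TNF (n = 9). In the batch labelled 2, all 2 days after injection, there were WT retinas given PBS (n = 5) or IL1A+TNF (n = 6) and Sarm1-/- retinas given PBS (n = 6) or IL1A+TNF (n = 6). Sarm1-/- mice lack SARM1, a driver of axon degeneration, in every cell of the body. All groups shared an intravitreal injection, and no uninjected eye was among them. Many PBS retinas were the fellow eye of a cytokine-injected retina of the same mouse, and 45 mice gave both eyes. All Sarm1-/- retinas were in batch 2 and were set against WT retinas of both batches.

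Depth ran from 30014757 to 79064488 counted read pairs per retina. A floor of 3 counts stood for 0.1 CPM (read counts scaled to library size) in the shallowest library and 0.0379 CPM in the deepest, which covers counting error only. Sarm1 itself was between 26 and 52.9 CPM in the 12 Sarm1-/- retinas and between 76.2 and 138 CPM in the 97 WT retinas, with no overlap. As a check of the tissue, 8 rod and cone markers summed to between 15540 and 52390 CPM in every retina. A whole retina mixes neurons, glia, vessels and any infiltrating leukocytes, and in such bulk tissue fewer cells of a type and less RNA per cell cannot be told apart.

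Interferon-gamma binds a receptor made of Ifngr1 and Ifngr2, and its kinases Jak1 and Jak2 pass the signal on to GAS sites in genes such as Irf1. Irf1 then acts on interferon-stimulated response elements (ISREs) in front of the GTPase genes. Guanylate-binding proteins coat vacuoles and free bacteria and feed the caspase-11 and inflammasome pathways, whereas Irgm1, Irgm2 and Igtp are regulatory members of their family that keep the effector immunity-related GTPases off the cell's own membranes.

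The sequences just before the start sites of 6 of these genes are shown because they hold matches to the elements through which interferons are known to act on this family. Each run is 120 bases, written 5′ to 3′ along the gene's own strand from the RefSeq annotation of mouse build GRCm38.p6, with capitals marking matches on either strand to the ISRE core GAAANNGAAA or the GAS motif TTCNNNGAA, where overlapping matches were kept.
Irgm1, chr11:48871421-48871540, minus strand: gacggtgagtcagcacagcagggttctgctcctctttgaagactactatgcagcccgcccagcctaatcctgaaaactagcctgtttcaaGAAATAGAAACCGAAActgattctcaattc
Igtp, chr11:58199436-58199555, plus strand: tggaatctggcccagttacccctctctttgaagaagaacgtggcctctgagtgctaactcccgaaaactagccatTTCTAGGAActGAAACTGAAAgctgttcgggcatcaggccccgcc
Irgm2, chr11:58214857-58214976, plus strand: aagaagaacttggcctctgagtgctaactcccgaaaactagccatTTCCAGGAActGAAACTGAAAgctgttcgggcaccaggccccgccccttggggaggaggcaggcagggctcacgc
Gbp7, chr3:142530216-142530335, plus strand: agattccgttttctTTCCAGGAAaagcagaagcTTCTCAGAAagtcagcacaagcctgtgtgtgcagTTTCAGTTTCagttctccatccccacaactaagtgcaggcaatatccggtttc
Gbp3, chr3:142559924-142560043, plus strand: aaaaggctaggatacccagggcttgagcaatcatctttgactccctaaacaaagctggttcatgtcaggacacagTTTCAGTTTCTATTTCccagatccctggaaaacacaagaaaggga
Irf1, chr11:53769894-53770013, plus strand: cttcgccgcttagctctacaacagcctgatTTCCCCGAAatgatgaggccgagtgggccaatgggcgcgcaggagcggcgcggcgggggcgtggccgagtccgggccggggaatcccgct

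An ISRE core lay within the window from 250 bases before to 50 bases after the start site in each of the 6 GTPase genes of the list that had a window (Gbp5 among them), against 3.44% of 32851 windows of that length. A GAS match was found in 4 of those 6, against 8.3% of all windows. Among relatives outside the list, the windows of Gbp2, Gbp2b, Tgtp1, Tgtp2, Gm12250 and 9930111J21Rik1 held an ISRE core. Those of Ifi47, Gm5431 and 9930111J21Rik2 held neither an ISRE core nor a GAS match. In the printed runs the ISRE core was centred 59 bases before the start in Irgm2, 48 in Gbp7 and 29 in Igtp, and overlapping pairs lay at 40 and 34 bases in Gbp3 and at 25 and 19 bases in Irgm1. Igtp and Irgm2, which are neighbours, shared 74% of the longer window in identical blocks, the longest of 61 bases. Irf1 held no ISRE core in the window but a GAS match 86 bases before the start, and a match to the NF-kB motif 8 bases before it, a motif present in 8.46% of windows. No window was at hand for Gbp9 and Gbp6. RefSeq start sites can lie away from those of other annotations, as for Irgm2, and a match of letters is a description and not a bound site.

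**Figure D1:**
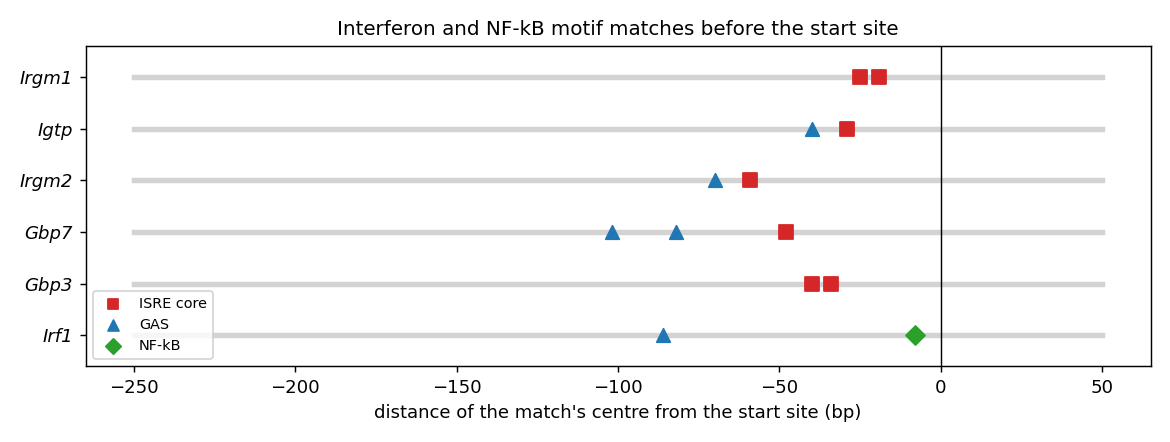
Motif matches around the start sites of 6 of the genes. The horizontal axis is the distance in bases from the RefSeq start site, each row is a gene and each mark is the centre of a match to the ISRE core, the GAS motif or the NF-kB motif; the 5 GTPase genes each have an ISRE core upstream of the start and Irf1 has a GAS and an NF-kB match.

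In the GENCODE M21 annotation of GRCm38, Irgm1 (ENSMUSG00000046879) lay on chromosome 11 from 48861968 to 48871683. Igtp (ENSMUSG00000078853; 58199556 to 58207591) and Irgm2 (ENSMUSG00000069874; 58199618 to 58222782) overlapped on the same chromosome and shared an exon of 162 bases, 8.0% of the exonic bases of Igtp and 4.4% of those of Irgm2, so that reads there could have been split or set aside between them. Irf1 (ENSMUSG00000018899) lay on chromosome 11 from 53770014 to 53778374, with 3.4% of its exonic bases under the antisense gene Gm17334. Gbp7 (ENSMUSG00000040253; 142530342 to 142550149) and Gbp3 (ENSMUSG00000028268; 142560026 to 142573209) were neighbours on chromosome 3, and Gbp9 (ENSMUSG00000029298) lay on chromosome 5 from 105077630 to 105139539, with 1.2% of its exonic bases shared with Gbp8 and Gbp4. All values below are over whole genes, exons together.

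At 2 days after injection, IL1A+TNF raised all 7 genes over PBS, and Irgm1, Igtp and Irgm2 were raised the most, between 5.84-fold and 7.4-fold in the fitted model. Gbp7 (4.9-fold) and Irf1 (4.21-fold) came next, Gbp3 rose 2.54-fold and Gbp9 only 1.45-fold. IL1A alone raised 4 of 7, and TNF alone raised none. For 6 of the 7, all but Gbp9, the combination exceeded the sum of the single cytokines' log2 changes.

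Irgm1, which restrains its effector relatives and takes part in autophagy, ran from 7.91 CPM through a median of 12.99 to 54.4 CPM in the 31 PBS retinas, and from 15.4 through 157 to 224 CPM in the 10 IL1A+TNF retinas. Igtp ran from 5.31 through 7.90 to 29.7 CPM after PBS and from 7.80 through 85.9 to 132 CPM after IL1A+TNF. Irgm2 ran from 5.58 through 9.70 to 28.2 CPM and from 12.4 through 76.3 to 116 CPM in the same groups. In each of these 3 genes, 8 of 10 IL1A+TNF retinas lay above every PBS retina and the other 2 lay within the PBS range. The log2 fold changes were 2.89 ± 0.28 for Irgm1 (SE; FDR 3.38e-13), 2.77 ± 0.29 for Igtp (FDR 3.63e-12) and 2.55 ± 0.23 for Irgm2 (FDR 2.73e-14).

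Among the guanylate-binding proteins, Gbp7 ran from 11.8 through 15.8 to 53.3 CPM after PBS and from 15.6 through 121 to 169 CPM after IL1A+TNF. Gbp3 ran from 6.29 through 11.2 to 25.02 CPM and from 12.4 through 31.7 to 45.4 CPM. Gbp9 ran from 5.26 through 7.62 to 11.2 CPM and from 9.18 through 11.5 to 12.98 CPM. The groups overlapped in all 3, with 8 of 10 IL1A+TNF retinas above every PBS retina for Gbp7, 7 for Gbp3 and 5 for Gbp9. The log2 fold changes were 2.29 ± 0.23 (FDR 1.36e-12), 1.35 ± 0.14 (FDR 1.06e-11) and 0.53 ± 0.09 (FDR 6.34e-07). Irf1 ran from 6.90 through 10.3 to 26.1 CPM after PBS and from 14.6 through 54.8 to 80.9 CPM after IL1A+TNF, with 8 of 10 retinas above every PBS retina and a log2 fold change of 2.07 ± 0.18 (FDR 2.02e-14).

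These 7 of 7 calls were made where 24.9% of all 19548 genes tested were called higher, and the median log2 fold change was 2.29 over the 7 genes and -0.02 over all genes. The order of the genes by level per kilobase of exon differed between the groups. After PBS, Igtp had the highest level (4.64 ± 2.42 CPM per kb, SD, n = 31), Gbp3 (3.57 ± 1.04), Gbp7 (3.33 ± 1.42), Irgm2 (2.90 ± 1.18), Irf1 (2.87 ± 0.919) and Irgm1 (2.81 ± 1.56) followed within their spread of each other, and Gbp9 was lowest at 1.53 ± 0.314 CPM per kb. After IL1A+TNF, Igtp was again highest at 38.6 ± 20.3 CPM per kb (SD, n = 10) and Irgm1 had moved from the sixth place to the next at 24.8 ± 12.95, neighbours that did not differ beyond their spread. Irgm2 (19.4 ± 9.26) and Gbp7 (19.1 ± 9.44) could not be ordered, and Irf1 (13.7 ± 6.21), Gbp3 (9.63 ± 3.59) and Gbp9 (2.22 ± 0.240) came last.

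**Figure D2:**
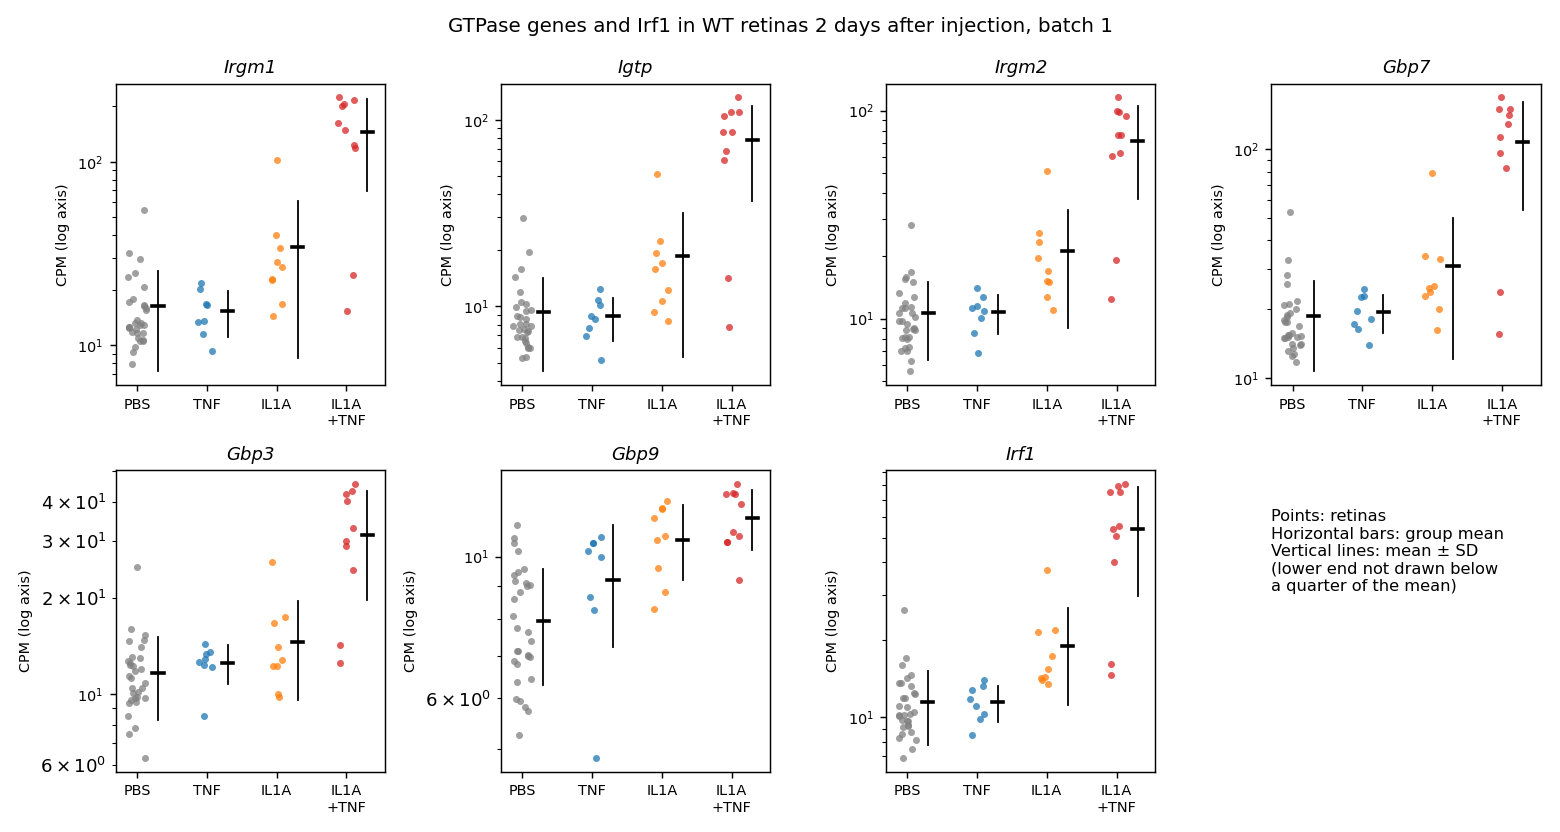
Levels of the 7 genes in WT retinas 2 days after PBS, TNF, IL1A or IL1A+TNF (batch 1). Each point is 1 retina on a logarithmic CPM axis, bars are group means and lines the SD (cut short at the lower end where it would near 0); for Irgm1 the 10 IL1A+TNF retinas run from 15.4 to 224 CPM, and 2 of them lie among the 31 PBS retinas.

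The 2 low IL1A+TNF retinas were those of mouse 60780, the lowest of the group in 7 of 7 genes (Irgm1 at 15.4 CPM, beside 16.3 CPM in its PBS eye), and mouse 60215 (Irgm1 at 24.2 CPM, beside 12.6 CPM in its PBS eye). The summed level of 8 rod and cone markers was 33320 CPM and 25590 CPM in these retinas and 16290 to 23210 CPM in the other 8, beside 28900 to 47220 CPM after PBS. Summed neutrophil markers were at 220.2 and 231.4 CPM in them, within the 192.1 to 1053 CPM of the other 8. Summed monocyte and macrophage markers were at 221.1 and 499.8 CPM, beside 303.7 to 606.1 CPM in the other 8. Both of these sums lay above every PBS retina. The part of tissue composition in the low levels of these retinas was not tested. With the fellow PBS eye as the reference, available for 8 IL1A+TNF mice, Igtp, Irgm2, Gbp3 and Irf1 were higher in the IL1A+TNF eye in 8 of 8 mice and Irgm1, Gbp7 and Gbp9 in 7 of 8. The median difference between fellow eyes was 3.36 on the log2 scale for Irgm1 (range -0.08 to 4.11), 2.30 for Irf1 and 0.50 for Gbp9.

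After IL1A alone, Irgm1 ran from 14.4 through 26.8 to 102 CPM (n = 9), Irf1 from 13.5 through 15.4 to 37.5 CPM and Gbp9 from 8.29 through 10.8 to 12.2 CPM. Every IL1A retina lay above the PBS median in these 3 genes, and 1 of 9 lay above every PBS retina for Irgm1 and Irf1 and 4 of 9 for Gbp9. Irgm1 (0.97 ± 0.31, FDR 0.0177), Irgm2 (0.93 ± 0.27, FDR 0.00704), Irf1 (0.71 ± 0.22, FDR 0.0124) and Gbp9 (0.44 ± 0.09, FDR 2.56e-04) rose on the log2 scale. Igtp (0.87, FDR 0.062), Gbp7 (0.67, FDR 0.0585) and Gbp3 (0.32, FDR 0.195) did not pass. The 4 calls of 7 stood beside 12% of all genes called higher, with medians of 0.71 over the 7 and -0.01 over all genes. They leaned on the retina of mouse 60637, the highest in 6 genes (Irgm1 at 102 CPM, its PBS eye at 17.8 CPM): without it 1 gene was called. With mouse as a fixed term, which uses only differences between fellow eyes, 0 genes were called (limma).

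TNF alone left the genes near PBS at day 2. Irgm1 ran from 9.33 through 15.2 to 21.7 CPM (n = 8), Igtp from 5.19 through 8.73 to 12.5 CPM and Irf1 from 8.50 through 11.4 to 13.9 CPM. These values lay inside the PBS range but for the lowest of Igtp, just under it. By limma 0 of 7 genes were called and 1 had an unadjusted p under 0.05 (Gbp9, log2 difference 0.22, 95% interval 0.01 to 0.43). By DESeq2 and edgeR 0 were called, and 0.655% of all genes were called in either direction. The interval for Irgm1, -0.74 to 0.77, left room for a change of either sign. The TNF retina of mouse 60584 was the lowest of its group in 7 of 7 genes, and without it 1 gene was called. Its summed monocyte and macrophage markers were at 3.82 CPM, beside 57.5 to 294.5 CPM in the other TNF retinas. The PBS eye of this mouse was at 122.9 CPM, the highest of the PBS group. The reason for these values was not tested, and the TNF comparison includes both eyes.

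Set directly against each single cytokine, IL1A+TNF was higher than IL1A in 6 of 7 genes (Irgm1 by 1.92 ± 0.35 on the log2 scale, FDR 1.82e-04; 5.39% of all genes called higher) and higher than TNF in 7 of 7 (Irgm1 by 2.87; 20% of all genes). Gbp9 was the gene that did not pass against IL1A, with a log2 difference of 0.09 and a 95% interval of -0.13 to 0.31 (FDR 0.663). The departure from additivity on the log2 scale, tested as an interaction, was positive and called in 6 of 7 genes, where 1.78% of all genes were called higher. It was 1.90 ± 0.51 for Irgm1 (FDR 0.0273), 1.90 ± 0.56 for Igtp (FDR 0.0431), 1.54 ± 0.43 for Irgm2 (FDR 0.0334), 1.51 ± 0.42 for Gbp7 (FDR 0.0322), 1.33 ± 0.35 for Irf1 (FDR 0.0229) and 0.89 ± 0.27 for Gbp3 (FDR 0.0488). Gbp9 departed from this pattern with -0.13 ± 0.15 (FDR 0.719). With no filter on low counts only Irf1 was called, and the other 5 no longer passed. These comparisons share samples, and their values are given side by side.

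**Figure D3:**
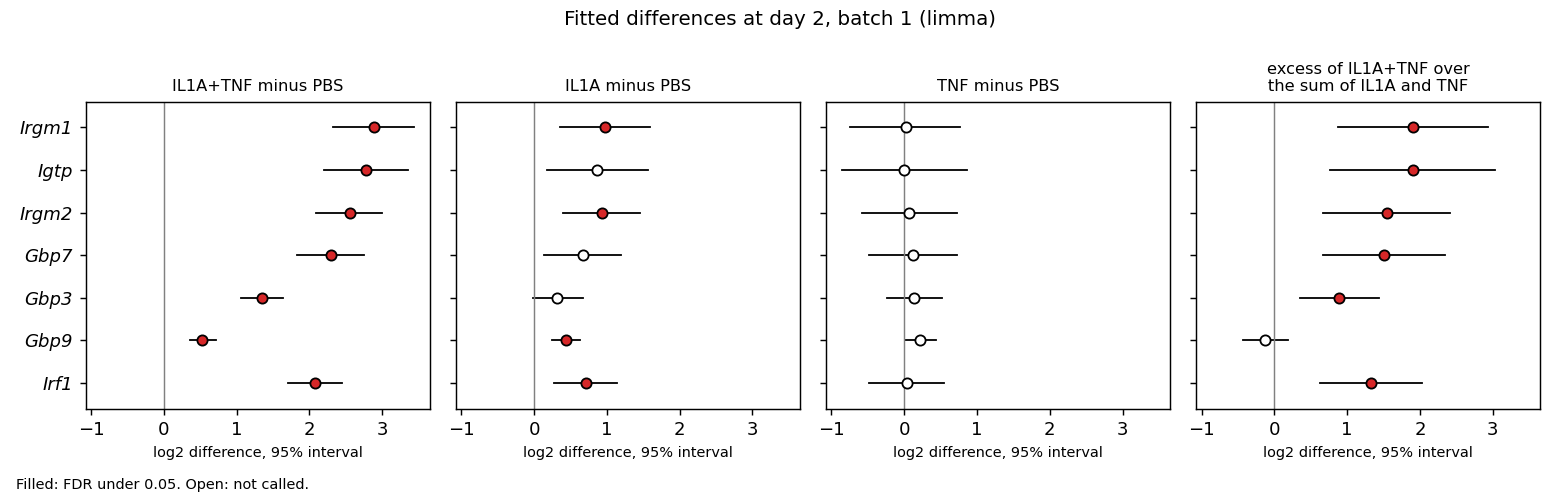
Fitted log2 differences of the 7 genes at day 2 with 95% intervals, for IL1A+TNF, IL1A and TNF against PBS and for the interaction of IL1A with TNF. Filled points have an FDR under 0.05; all 7 genes are filled for IL1A+TNF, 4 for IL1A, 0 for TNF and 6 for the interaction, where Gbp9 sits at -0.13.

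The row Gm43302, a gene model that shares 29% of the exonic bases of Gbp6 and was picked after its values were seen, rose by 1.61 ± 0.16 with IL1A+TNF (FDR 7.08e-13) and by 0.68 with IL1A (FDR 0.00385). It overlaps Gbp10 as well and its values cannot be assigned to Gbp6. Of 6 other guanylate-binding protein genes listed, 5 were tested and 4 rose with IL1A+TNF (median 0.78), among them Gbp4 (0.78) and Gbp2 (0.57 ± 0.11). Gbp11 (2.62) and Gbp8 (1.5) rose as well, Gbp11 from 0.124 to only 0.717 CPM. Of 11 other immunity-related GTPases listed, 10 were tested and all 10 rose (median 2.35), among them Tgtp2 (2.25), an effector of the family, and Ifi47 (1.94).

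The genes of the interferon-gamma pathway itself rose in part. Of 13 listed, 12 were tested and 10 rose with IL1A+TNF (median log2 fold change 0.88). The transcription factor Irf9 rose by 1.90 on the log2 scale, the myeloid factor Irf8 by 2.45, and the inhibitors Socs1 by 2.31 and Ptpn6 by 2.61. The receptor genes rose less, Ifngr2 by 0.39 and Ifngr1 by 0.29, and among the kinases Jak2 rose by 0.33 and Jak1, at 0.07, did not pass. Nmi (1.03) and Irf2 (0.73) rose, and the phosphatase Ptpn2 was at 0.02 and did not pass. After IL1A alone 9 of the 12 rose, with a median of 0.34, and after TNF alone 0 did (limma). The interaction was called for 4 of 12, among them Irf9 (1.27), Nmi (0.71) and Irf2 (0.51).

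The ligand Ifng had too few counts to be tested: it was at 0 in 88 retinas of the series, including 17 of 22 retinas given IL1A+TNF, and reached 3 counts at most. Ifnb1, a type I interferon, was at 0 in 103 retinas with at most 2 counts. Cxcl9, a chemokine induced by interferon-gamma, was at 0 in 61 with at most 18 counts. Among the 22 retinas given IL1A+TNF, Ifnb1 was at 0 in 20 but Cxcl9 in only 6. The highest Cxcl9 count, 18, was in an IL1A+TNF retina. T cell and natural killer cell markers, the sources of interferon-gamma in most tissues, stayed low: the 8 T cell markers summed to 1.00 to 2.63 CPM after PBS and 1.66 to 3.50 CPM after IL1A+TNF, and the 8 NK cell markers to 6.44 to 9.97 CPM and 6.23 to 9.30 CPM. Most of the NK sum was Eomes, which retinal neurons also express. The T cell receptor subunits Cd3d, Cd3e and Cd3g were at 0 in 2, 3 and 3 of the 10 IL1A+TNF retinas and the NK receptor Ncr1 in 6. Of the few such markers that could be tested, Lck (0.36) and Klrd1 (2.51) rose, Eomes fell by 0.25 and Cd4 and Cd8a did not pass. Klrd1, at a mean of 0.123 CPM after PBS and 0.532 CPM after IL1A+TNF, also rose after IL1A alone (2.90) and TNF alone (2.39). Lck, Cd4 and Cd8a passed after neither single cytokine, and Eomes fell after IL1A alone (-0.31). Transcript levels at day 2 do not show what was made earlier or outside the retina.

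Targets of both kinds of interferon rose with IL1A+TNF. Of 19 further interferon-gamma targets, 16 were tested and 14 rose (median 1.66), among them the immunoproteasome subunits Psmb9 (2.65), Psmb8 (1.87) and Psmb10 (1.45) and the peptide transporter subunit Tap2 (1.28). All 16 of 16 tested type I interferon genes rose (17 listed, median 1.66), among them Ifi44 (2.44), Stat2 (1.89), Ifit2 (1.55) and Ifnar2 (0.78). Downstream of the guanylate-binding proteins, 7 of 8 caspase-11 and inflammasome genes rose (median 1.44), among them Nlrp3 (2.16), Casp1 (1.53), Gsdmd (1.35) and Aim2 (1.08). In this last list IL1A alone already raised 7 of 8, with a median of 1.22, and the interaction was called in 0 of 8. The interaction was called higher in 6 of 16 type I genes, in 1 of 10 other immunity-related GTPases, and in 1 of 16 further interferon-gamma targets, where 3 were lower.

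Markers of other cells moved with the same contrast. The 7 neutrophil markers tested all rose with IL1A+TNF (median 3.59), with a summed level of 18.3 to 176 CPM after PBS, 21.96 to 83.9 CPM after TNF, 92.1 to 485 CPM after IL1A and 192 to 1053 CPM after IL1A+TNF. Monocyte and macrophage markers rose in 8 of 8 (median 1.24), and their sum ran from 10.7 to 123 CPM after PBS, 3.82 to 295 CPM after TNF, 57.1 to 293 CPM after IL1A and 221 to 606 CPM after IL1A+TNF. The highest PBS value and the lowest TNF value of this sum were both from mouse 60584. Microglia markers rose in 4 and fell in 3 of 8, endothelial markers rose in 6 and fell in 1, Müller glia markers rose in 4 and fell in 2, and rod and cone markers fell in 8 of 8 (median -0.88). RGC markers fell in 7 of 8 (median -0.28) and pigment epithelium markers in 7 of 8 (median -1.40). Lens markers passed in 0 of 7 (limma), but their sum reached 4246 CPM in a PBS retina. The part of these cell types in the GTPase levels was not tested.

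Over all retinas, with each value taken as the deviation from the mean of the matching WT PBS group, the 10 genes whose log2 CPM was most like the mean of the 7 genes were Dtx3l (Pearson r = 0.988), Ddx58 (0.987), Parp9 (0.986), Parp14 (0.984), Trim21 (0.980), Tap1 (0.979), Parp12 (0.978), Ifih1 (0.976), Usp18 (0.976) and Eif2ak2 (0.975), out of 15124 genes compared. Within the 7, each against the mean of the others, r was 0.987 for Irgm2, 0.983 for Irgm1 and Gbp7, 0.982 for Igtp, 0.969 for Irf1, 0.883 for Gbp3 and 0.528 for Gbp9. These correlations are descriptions over retinas that share mice, batches and treatments, and Gbp9 was the gene that followed the others least.

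After PBS, all 7 genes were lower at 14 and 35 days than at 2 days. Irgm1 had a median of 6.84 CPM at day 14 (5.26 to 9.12, n = 7) and 5.01 CPM at day 35 (3.68 to 6.02, n = 6), below the median of 12.99 CPM at day 2. Gbp9 had 5.84 CPM at day 14 (3.78 to 6.68) and 3.0 CPM at day 35 (2.36 to 3.82). In each of the 7 genes, all day 35 values lay below the lowest day 2 value, which was 5.26 CPM for Gbp9. The share of all genes with such a separation was not counted. The fitted log2 differences from day 2 were -1.15 and -1.59 for Irgm1, -0.82 and -1.42 for Igtp, -0.96 and -1.52 for Irgm2, -0.65 and -1.11 for Gbp7, -0.96 and -1.57 for Gbp3, -0.53 and -1.39 for Gbp9, and -0.71 and -1.17 for Irf1. All 7 passed the test over the 3 days (limma F test, FDR 2.20e-05 for Irgm1 and 3.56e-09 for Gbp9), as did 36.2% of all genes, and the median difference at day 14 was -0.82 over the 7 and 0.01 over all genes. The days hold different mice, so that day and any difference between those sets of mice cannot be told apart. Mouse 59710 gave both of its eyes to the day 14 PBS group, and the F test treated them as separate. Neutrophil markers (6 lower, median -2.96), monocyte markers (7 lower, -1.57) and microglia markers (8 lower, -0.70) fell over the same days, and their part was not tested.

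TNF did not separate from PBS at the later days. Irgm1 ran from 5.64 through 7.97 to 17 CPM at day 14 (n = 6) and from 4.26 through 5.50 to 7.20 CPM at day 35 (n = 9). The groups overlapped, with mouse 59709 the highest of the day 14 TNF retinas in 6 genes. By limma 0 of 7 genes were called at day 14, where 2 had an unadjusted p under 0.05 (Gbp3, log2 difference 0.44, p = 0.0328; Gbp9, 0.40, p = 0.0456), and 0 of 7 at day 35, where 1 had one (Gbp3, 0.27, p = 0.0483). The medians over the 7 genes were 0.38 and 0.16. At both days 0% of all genes were called. The change in the TNF effect from day 2 to day 14, and to day 35, was called in 0 of 7 genes with 0 at an unadjusted p under 0.05 (0% and 0% of all genes), and DESeq2 and edgeR also made 0 calls in these 4 comparisons.

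**Figure D4:**
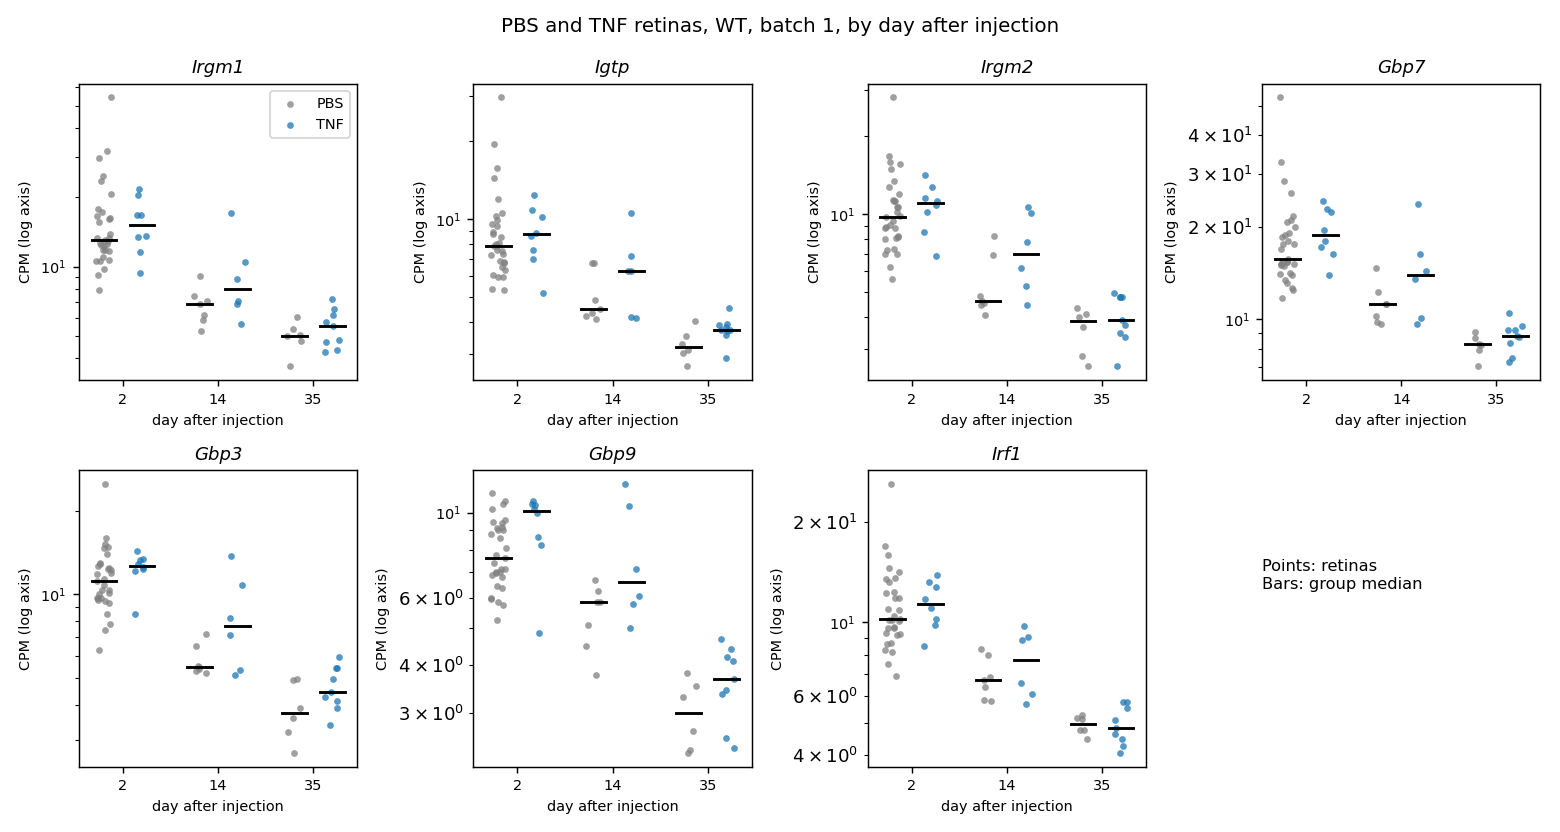
Levels of the 7 genes 2, 14 and 35 days after PBS or TNF in WT retinas (batch 1). Each point is 1 retina on a logarithmic CPM axis and bars are medians; for Irgm1 the PBS medians are 12.99, 6.84 and 5.01 CPM, and the TNF retinas overlap the PBS retinas at every day.

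The second batch repeated IL1A+TNF in other WT mice. In its 5 WT PBS retinas Irgm1 was at 9.94, 15.2, 15.5, 17.97 and 19.2 CPM, and in its 6 WT IL1A+TNF retinas at 25.7, 40.1, 69.9, 103, 141 and 173 CPM. Every IL1A+TNF retina lay above every PBS retina for Irgm1 and for 5 further genes, all but Gbp3, as it did for 11.7% of all genes. By limma within this batch, Irgm1 (2.29 ± 0.74, FDR 0.0342), Irgm2 (1.97, FDR 0.0235), Gbp7 (1.66, FDR 0.033) and Irf1 (1.56, FDR 0.0345) rose, whereas Igtp (2.14, FDR 0.0541), Gbp9 (0.69, FDR 0.0516) and Gbp3 (0.85, FDR 0.074) did not pass. The 4 calls of 7 stood beside 13.2% of all genes called higher. They fell to 0 without the IL1A+TNF retina of mouse 61719 or the PBS retina of mouse 61927, and to 1 without the IL1A+TNF retina of mouse 61721 or 62224 or the PBS retina of mouse 61720, 61721 or 61722. DESeq2 called 7 and edgeR 5.

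In Sarm1-/- mice, IL1A+TNF raised 5 of 7 genes over PBS in the fit to all 81 day 2 retinas with batch as a term, with 21.3% of all genes called higher. Irgm1 (1.91 ± 0.51, FDR 0.00146), Igtp (1.83, FDR 0.00355), Irgm2 (1.38, FDR 0.00433), Irf1 (1.29, FDR 0.00158) and Gbp7 (1.07, FDR 0.0268) rose. Gbp3 (0.09, FDR 0.81) and Gbp9 (-0.27, FDR 0.228) did not pass. Fitted on batch 2 alone, 3 genes were called.

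These averages joined retinas of very different levels. Irgm1 was at 193, 195 and 167 CPM in the 3 female Sarm1-/- IL1A+TNF retinas (mice 61765, 61924 and 61926) and at 18.3, 29.6 and 32.7 CPM in the 3 males (mice 61561, 61564 and 62221). Their PBS eyes were at 10.3, 15 and 17.1 CPM in the females and 24.8, 34.7 and 18.3 CPM in the males. The females were thus well above every PBS retina, and the males lay within the range of their own PBS eyes. The split between the sexes was looked at after the values had been seen.

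Igtp was at 71.1 to 92.3 CPM in the 3 females and 9.50 to 17.7 CPM in the 3 males after IL1A+TNF, and Irgm2 at 60.5 to 74.2 CPM and 10.9 to 22.9 CPM. Gbp7 was at 73.5 to 112 CPM in females and 17.02 to 26.2 CPM in males, and Irf1 at 56.9 to 65.8 CPM and 13.8 to 17.1 CPM. Every female retina exceeded every male retina in 6 of 7 genes, all but Gbp9, where 22.4% of all genes showed the same separation. Gbp9 was at 5.93 to 8.55 CPM in the females and 8.88 to 11.7 CPM in the males. In WT IL1A+TNF retinas of either batch, 0 of 7 genes separated the sexes that way. The share of all genes was not counted for these WT groups. Batch 1 held 6 females and 4 males, and full separation is harder to reach with more retinas, so its count is not on the same footing.

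Fitted within batch 2, the Sarm1-/- females had 6 of 7 genes higher after IL1A+TNF (26.7% of all genes): Irgm1 by 3.73 ± 0.63 (FDR 9.95e-05), Igtp by 3.67, Irgm2 by 2.79, Irf1 by 2.54, Gbp7 by 2.41 and Gbp3 by 0.96 (FDR 0.0414). In the males 0 of 7 were called by limma, with 1 at an unadjusted p under 0.05 (Gbp9, -0.63), and 0.0100% of all genes were called higher. The male difference for Irgm1 was 0.06 with a 95% interval of -1.15 to 1.27. The difference between the sexes in this effect was itself called in 6 of 7 genes, with 13.7% of all genes called higher, and was 3.67 ± 0.85 for Irgm1 (FDR 0.00458), 3.67 for Igtp (FDR 0.00675), 2.85 for Irgm2, 2.7 for Gbp7, 2.54 for Irf1 and 1.74 for Gbp3 (FDR 0.0206). Gbp9 had 0.76 (FDR 0.116). In WT retinas of batch 2 the same difference was called in 0 of 7 genes (limma, 0 at an unadjusted p under 0.05; 0% of all genes), but its interval for Irgm1, -2.34 to 1.67 about -0.34, was wide.

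With 3 Sarm1-/- mice of each sex, sex and any other difference between these 6 mice cannot be told apart. In the males 2 of 19910 genes were called higher and 0 lower (limma), and whether these 3 eyes received the cytokines in full was not tested, so that the male values, the difference between the sexes and the Sarm1-/- averages rest on that. The neutrophil sum separated the same retinas, at 464 to 1202 CPM in the females and 145 to 363 CPM in the males, as did the rod and cone sum, at 15540 to 21500 CPM and 26340 to 36460 CPM. The monocyte sum overlapped, at 265 to 308 CPM in the females and 148 to 283 CPM in the males, and was at 27.4 to 89.3 CPM in the PBS eyes of those males. The RGC marker sum was 95.3 to 343 CPM in the females, below the 622 to 742 CPM of the males, and the PBS Sarm1-/- retinas were at 719 to 791 CPM. By list, 10 of 10 other immunity-related GTPases, 11 of 12 interferon-gamma pathway genes, 12 of 16 type I interferon genes and 6 of 7 neutrophil markers rose in the females. Of the other guanylate-binding proteins, 0 of 5 rose in the females and 2 fell (median 0.41). In the same females 8 of 8 RGC markers fell, and 0 genes of these lists were called in the males (limma). Lens markers reached 5559 CPM in the female retina of mouse 61926. The part of these values in the split was not tested.

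**Figure D5:**
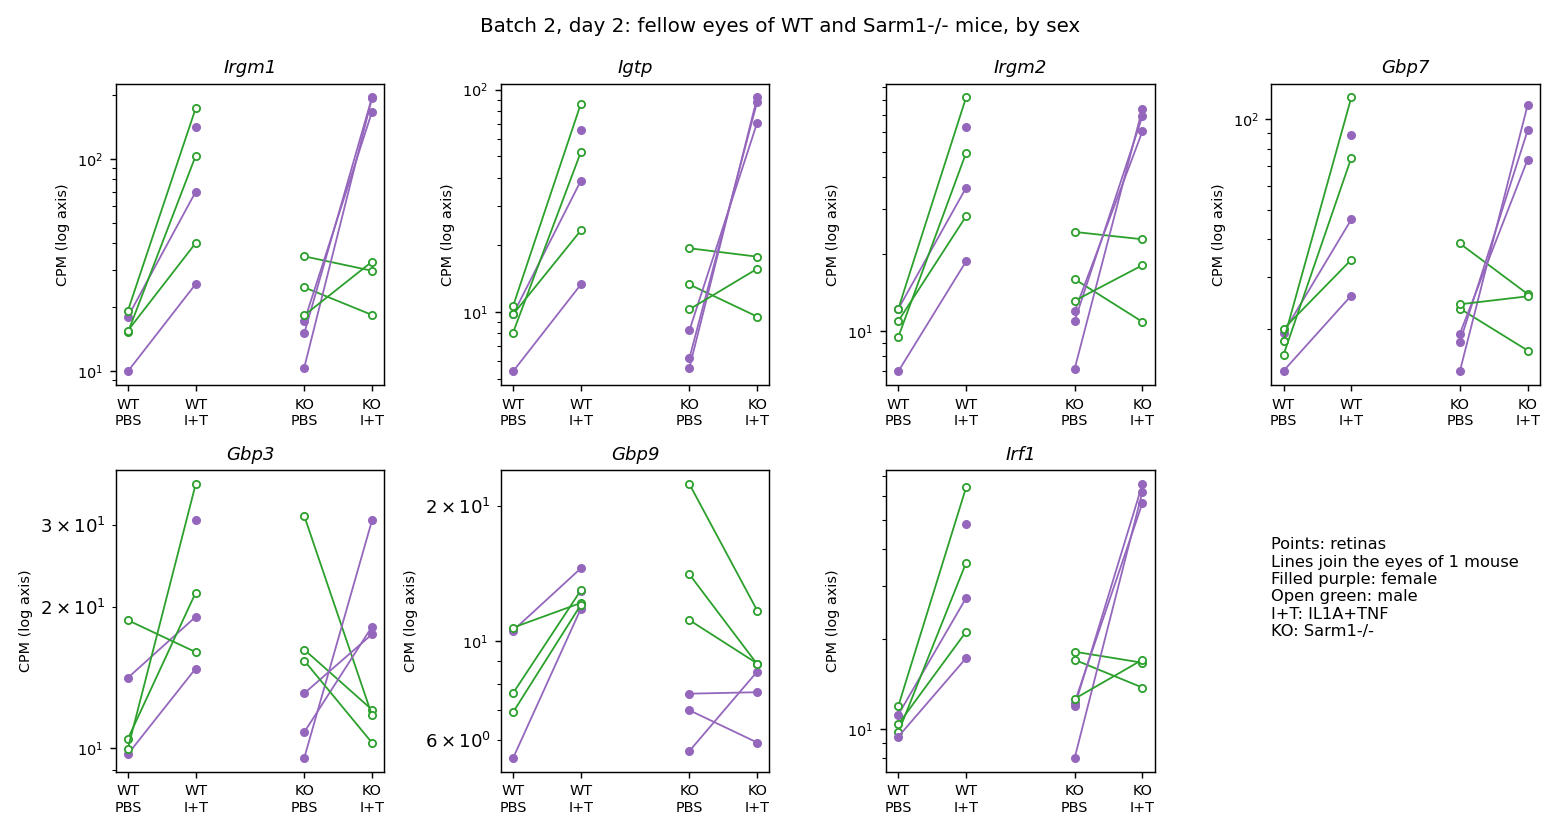
Fellow eyes of the batch 2 mice after PBS and IL1A+TNF, WT and Sarm1-/-, for the 7 genes. Each line joins the eyes of 1 mouse on a logarithmic CPM axis, filled points are females and open points males; for Irgm1 the 3 Sarm1-/- females reach 167 to 195 CPM and the 3 males 18.3 to 32.7 CPM.

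Between the genotypes, 0 of 7 genes were called after PBS (limma, 0.0397% of all genes called), and 1 had an unadjusted p under 0.05 (Gbp3 at 0.55). The fitted log2 differences of all 7 genes were nevertheless above 0, from 0.31 to 0.67. Their median was 0.57, against 0.00 over all genes. Within batch 2 this median was -0.03 in females and 0.63 in males, with 0 calls in either sex. After IL1A+TNF, 1 of 7 was lower in Sarm1-/- retinas, beside 10.8% of all genes. This was Gbp9, at 5.93 to 11.7 CPM (8.61 ± 1.88, SD, n = 6) in Sarm1-/- retinas and 11.8 to 14.5 CPM (12.7 ± 0.999, SD, n = 6) in WT retinas of the same batch. Every Sarm1-/- retina lay below every WT retina, which held for 0.673% of all genes, and the log2 difference was -0.55 ± 0.16 (FDR 0.017). Gbp3 was at -0.58 (FDR 0.0844). The count was 0 without the IL1A+TNF retina of Sarm1-/- mouse 61924 or 61926, and 2 without that of Sarm1-/- mouse 61765 or WT mouse 61722 or 61927. It was 0 on batch 2 alone and by edgeR.

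The effect of IL1A+TNF differed by genotype in 2 of 7 genes, both smaller in Sarm1-/- retinas, where 7.24% of all genes were called lower. The differences were -1.13 ± 0.30 on the log2 scale for Gbp3 (FDR 0.015) and -0.85 ± 0.20 for Gbp9 (FDR 0.00924). They joined Sarm1-/- to WT differences of 0.55 after PBS and -0.58 after IL1A+TNF for Gbp3, and of 0.31 and -0.55 for Gbp9. On batch 2 alone, and without the IL1A+TNF retina of mouse 61924 or 61926, 0 genes were called. Among the females of batch 2 the difference turned to 0.25 for Gbp3 and was -0.57 for Gbp9, and among the males it was -1.74 and -1.24, with 0 calls in either sex. Other guanylate-binding proteins (4 of 5 lower, among them Gbp11 at -2.0, Gbp4 at -1.37 and Gbp2 at -0.89) and Gm43302 (-1.31, FDR 0.00838) were also called. Of the other immunity-related GTPases 3 of 10 were lower (Ifi47 at -1.38, Tgtp2 at -1.66), and of the interferon-gamma pathway 0 of 12 (limma). The split between the sexes lies within these averages. Taken apart, the Sarm1-/- females exceeded the WT females after IL1A+TNF in Irgm1 (1.59), Igtp (1.45), Irf1 (1.17) and Irgm2 (1.01). They were lower in Gbp9 (-0.79). Of all 19910 genes tested, 2132 were called higher and 3395 lower in this comparison of females. Between the males 0 of 7 genes were called (limma, Irgm1 at -1.78, FDR 0.149), beside 3 of all genes higher and 2 lower.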

How the data were processed

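RNA of 109 retinas was sequenced as paired reads. Per the submitters' processing notes, the authors aligned reads to mm10 with STAR 2.7.9a and counted read pairs per gene with featureCounts of Subread 2.0.1, and they deposited the raw counts as 1 table of 37315 genes. The annotation release, strand setting and treatment of reads with several matches are not given in the sources used here. Of the gene identifiers, 35449 were matched to GENCODE M21.

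The counts were scaled by TMM and fitted with limma 3.58.1 (voom) after edgeR 4.0.16 filtering (filterByExpr, minimum count 10, minimum total 15) in R 4.3.3, with mouse as a block (duplicateCorrelation, statmod 1.5.0) and sex as a covariate. The Sarm1-/- comparisons used all 81 day 2 retinas with batch as a further term, and the PBS days an F test without the block. P-values were adjusted over all genes tested (Benjamini-Hochberg), and an FDR under 0.05 was called. CPM values are from TMM library sizes, log2 CPM used a prior count of 2, and errors of fold changes are standard errors. Fellow eyes come from the same mouse by the labels: their deviations from the group mean correlated with a median of 0.209 over 45 mice (lowest -0.329), against -0.0108 between mice, and the block correlation in the day 2 fit was 0.0515. No libraries agreed within sampling noise.

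The genes and lists were chosen with earlier results of these data known, so their directions are no independent support. Named genes were the members, the tested interferon-gamma pathway genes (1 is not reported here), up to 4 genes of smallest FDR in each other list, and the 10 genes of most similar pattern. Gm43302 was added after its values were seen. The scripts were tested on simulated data. Alternatives were DESeq2 1.42.0, edgeR, no filter, no block, mouse as a fixed term, batch 2 alone, leaving out single retinas and, added after the data were seen, single sexes of batch 2.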

Additional observations from a re-analysis of the deposited data

Results flagged for a closer look

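The IL1A retina of mouse 60637 stood apart from the other 8 of its group for Gbp7 (79.1 CPM) and Irf1 (37.5 CPM), by the gap to its nearest neighbour relative to the range of the group. The day 2 TNF retina of mouse 60584 stood apart below its group for Gbp3 (8.53 CPM) and Gbp9 (4.84 CPM). These were 4 of 77 pairs of gene and group examined, and chance alone gives about 1 in 20.

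The effect of IL1A+TNF differed between Sarm1-/- and WT retinas for Gbp3 (-1.13 on the log2 scale) and Gbp9 (-0.85), by the test of the difference itself. Neither gene passed on batch 2 alone or without the IL1A+TNF retina of Sarm1-/- mouse 61924 or 61926. Among the females of batch 2 the difference for Gbp3 was 0.25. Within Sarm1-/- retinas it differed between females and males for Irgm1 (3.67), Igtp (3.67), Irgm2 (2.85), Gbp7 (2.7), Irf1 (2.54) and Gbp3 (1.74), a split examined after the values were seen and resting on 3 mice of each sex.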

How the results depend on the processing

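Of 271 recomputed counts of called genes, 242 stayed within 1.5 times the reported count and 29 did not. The 242 include comparisons with a reported count of 0, such as TNF against PBS, where a repeated 0 counted as unchanged. In those comparisons few or none of all genes were called, so the total says little about the other counts. The 7 calls for IL1A+TNF at day 2 were made in each fit that left out an IL1A+TNF retina (7 to 7) and with the replicate block as a fixed mouse term (7), which also left TNF at 0 calls at each day and IL1A at 0. Counts ranged from 1 to 6 for IL1A, 0 to 1 for TNF at day 2, 0 to 6 for WT batch 2, 4 to 5 for Sarm1-/- IL1A+TNF, 0 to 2 for Sarm1-/- against WT after IL1A+TNF and 0 to 2 for genotype by treatment when single retinas were left out. With no filter 1 interaction call was made. WT batch 2 gave 7 by DESeq2 and 0 in females. Batch 2 alone gave 3 for Sarm1-/- IL1A+TNF, 0 for Sarm1-/- against WT after IL1A+TNF and 0 for genotype by treatment. Sarm1-/- IL1A+TNF gave 0 in males. Sarm1-/- against WT after IL1A+TNF gave 0 by edgeR, 5 in females and 0 in males, and genotype by treatment 0 in either sex. The 5 in females were 4 higher and 1 lower, beside 2132 higher and 3395 lower of 19910 genes. The cause was not tested.

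Small TNF differences changed sign. At day 2 Igtp was 0.12 with mouse as a fixed term, Irf1 -0.01 by DESeq2 and 0.00 by edgeR, Irgm1 -0.08 by both and Irgm2 0.00 by both; leaving out single retinas gave -0.07 to 0.09 for Igtp, -0.01 to 0.10 for Irf1 and -0.06 to 0.11 for Irgm1. At day 35 Irf1 was 0.00 by DESeq2 and edgeR, 0.01 with mouse as a fixed term and -0.04 to 0.04 without single retinas. From day 2 to day 35 the TNF effect changed by 0.04 for Gbp7 and 0.01 for Irf1 by both tools.

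The sexes of batch 2 turned other signs. For IL1A+TNF in Sarm1-/-, males had Gbp3 at -0.78, Gbp7 at -0.30, Irf1 at 0.00 and Irgm2 at -0.06, females had Gbp9 at 0.13, and Gbp3 was -0.12 to 0.30 without single retinas. For Sarm1-/- against WT after PBS, females had Gbp3 at -0.13, Gbp7 at -0.02, Gbp9 at -0.22, Igtp at -0.23 and Irgm1 at -0.03. After IL1A+TNF, females had Gbp3 at 0.11, Gbp7 at 0.98, Igtp at 1.45, Irf1 at 1.17, Irgm1 at 1.59 and Irgm2 at 1.01, batch 2 alone gave Irf1 at 0.04, and leaving out single retinas gave Igtp -0.60 to 0.07, Irf1 -0.32 to 0.10 and Irgm1 -0.53 to 0.12. For genotype by treatment, females had Gbp3 at 0.25, Gbp7 at 1.01, Igtp at 1.68, Irf1 at 1.16, Irgm1 at 1.62 and Irgm2 at 1.00. Depth did not limit the 7 genes, since each retina held at least 80 read pairs of each.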
